A study of Mus musculus with 6 samples.

Results

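The 10 genes described here govern the supply of inorganic phosphate and pyrophosphate to mineralizing tissue, or act on the matrix proteins on which mineral grows. They were Alpl, Phospho1, Enpp1, Ank, Mgp, Phex, Fam20c, Fam20a, Slc20a1 and Slc20a2, taken by gene symbol, and all 10 were among the 23718 genes of the normalized count table. The samples came from the incisors of mice 1 month old, labelled C57BL/6 although the methods give a mixed background, and were cut out by laser capture microdissection (LCM), in which a laser frees marked cells from a tissue section. Mesenchymal stem cell (MSC) samples were Gli1-CreER;tdT and those of transit amplifying cells (TAC), the fast-dividing cells that MSCs give rise to, were Axin2-CreER;tdT, with 3 samples in each group. By the methods, the region cut out differed between the groups together with the driver. All 6 carried a Cre recombinase that tamoxifen activates and a tdTomato reporter, and the mice were taken the day after tamoxifen. Either driver marks any cell in which its gene is active, and a captured region can hold neighbouring cells. The labels do not tie samples to single mice, so p-values measure the spread between these samples.

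Hydroxyapatite, the mineral of dentin, enamel and bone, is built from calcium and phosphate. Pyrophosphate blocks its growth, and tissue-nonspecific alkaline phosphatase (Alpl) both removes pyrophosphate and frees phosphate from it. The balance between enzymes that make, export and cleave pyrophosphate therefore decides where mineral forms, and mutations in many of these genes cause soft bones, poor dentin or enamel, or calcified soft tissue. In the incisor the cells that secrete dentin and enamel lie distal to the stem cells and their dividing progeny.

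Levels are in the authors' normalized unit, in which reads are scaled to each library but gene length stays in. Values are listed in the order of replicates 1, 2 and 3. The libraries held 20203159 to 108156380 estimated reads. Replicate 3 of both groups stood apart from replicates 1 and 2, with mitochondrial ribosomal RNA at 0.112% and 0.236% of reads against 8.28% to 9.07%, and with 28.3% and 43.1% of genes without a read against 6.89% to 8.36%. Results are therefore also given within replicates 1 and 2 and within replicate 3. Markers of secretory cells were present in every library, with the dentin gene Dspp at 476 to 4909 and the enamel gene Amelx at 80.6 to 2503. Of 5 dividing cell markers, 4 had all TAC values above all MSC values, while Gli1 (MSC 245 to 422, TAC 141 to 396) and Axin2 (MSC 12.01 to 58.3, TAC 34.05 to 63.9) overlapped between groups. Between samples of the same number, Gli1 was higher in MSC each time, and Axin2 was higher in TAC in replicates 2 and 3 only.

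The largest difference among the members was in Mgp, an inhibitor of calcification, whose mean was 31.6-fold higher in MSC than in TAC. Ank, which releases pyrophosphate from cells, had a mean 2.09-fold higher in TAC. Enpp1, which makes pyrophosphate, had a mean 2.34-fold higher in MSC, and Alpl a mean 1.68-fold higher in TAC. For these 4 genes the groups did not overlap. The means of Phex, Fam20c, Fam20a and Slc20a2 were also higher in TAC, but in replicates 1 and 2 their log2 fold changes lay between -0.20 and 0.043.

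Of the 10 members, 9 reached the mean of 1 needed for testing, all but Phospho1. With limma and Benjamini-Hochberg adjustment over 15391 genes, 0 of the 9 had an adjusted p under 0.05, where 0.422% of all genes did. At an unadjusted p under 0.05 there were 3, namely Mgp, Ank and Enpp1, against a background of 11.9%. The voom method of limma on estimated reads also gave 0 at the adjusted threshold, against 0.149% of all genes, and 4 at the unadjusted one, against 23.2%, Fam20c being the fourth. Groups were separate for 2 members on the MSC side and 2 on the TAC side, and for 12.2% and 12.3% of all genes tested. With the replicate number as a block, 1 member (Mgp) passed the adjusted threshold, with a background of 1.49%. At the unadjusted threshold that fit gave 2, Mgp and Ank, where 3136 of 15391 genes passed, and Enpp1 had a limma p of 0.0777. With a term for the library set (replicate 3 against the others) 2 members passed the adjusted threshold (Mgp and Ank), with a background of 11.8%. In replicates 1 and 2 alone 3 members passed (Mgp, Ank and Enpp1), but there 44.2% of all genes did. That fit takes its error from 2 libraries a group, which correlated at 0.983 in MSC and 0.990 in TAC.

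**Figure D1:**
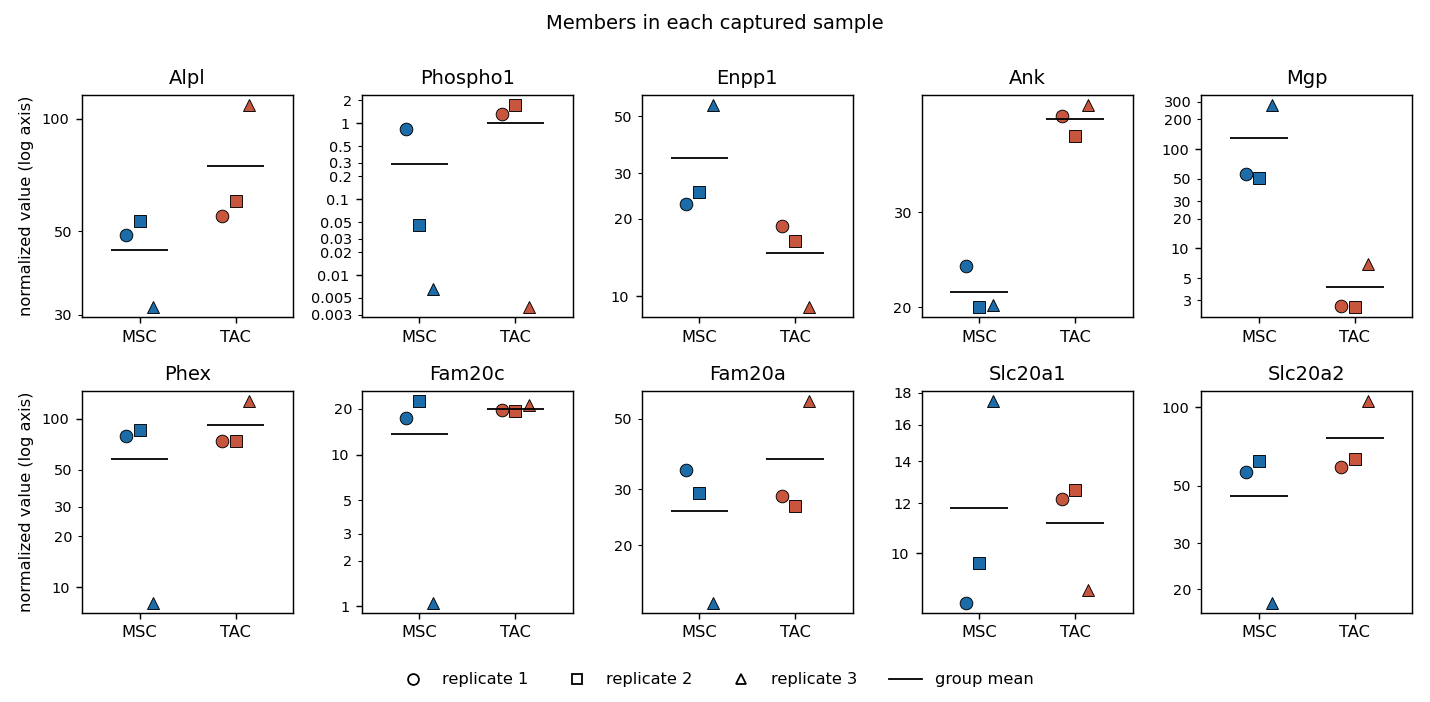
Normalized value (log axis) of each member in each sample, with MSC in blue and TAC in red, a circle, square or triangle for replicate 1, 2 or 3 and a line at the group mean. Mgp, Ank, Enpp1 and Alpl have groups that do not overlap, while in Phex, Fam20c, Fam20a and Slc20a2 the triangle of MSC replicate 3 is the lowest sample.

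Pyrophosphate outside cells comes from ENPP1, an ectoenzyme that cleaves ATP, and from ANK, a membrane protein needed for its release. Enpp1 (mm10, chromosome 10, 24637914 to 24712159, minus strand) measured 22.8, 25.3 and 55.3 in the MSC libraries and 18.7, 16.4 and 9.06 in the TAC libraries. Every MSC sample lay above every TAC sample, and replicate 3 gave both the highest and the lowest value. MSC averaged 34.4 ± 18.1 (SD, n = 3) and TAC 14.7 ± 5.01 (SD, n = 3). Fold changes are TAC minus MSC on the log2(value + 1) scale, and that of Enpp1 came to -1.12, with an SE of 0.45 and a limma adjusted p of 0.396. Its direction was the same in both sets of libraries, at -0.44 for replicates 1 and 2 and -2.48 for replicate 3, and its size was not.

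Ank (chromosome 15, 27466677 to 27594909, plus strand) measured 23.9, 20.02 and 20.2 in the MSC libraries and 45.3, 41.5 and 47.3 in the TAC libraries. The samples within a group stayed close together in both sets of libraries, and the groups were separate. MSC averaged 21.4 ± 2.17 (SD, n = 3) and TAC 44.7 ± 2.97 (SD, n = 3). A log2 fold change of 1.03 was fitted, with an SE of 0.26, a 95% interval of 0.43 to 1.64 and a limma adjusted p of 0.179. In both sets of libraries it was close to this, at 0.96 for replicates 1 and 2 and 1.19 for replicate 3, and the limma adjusted p was 0.0759 with the replicate block and 0.0143 with the library set term. Ank overlaps Otulin on the opposite strand, and Otulin reached at most 14.8. The summed level of the 5 dividing cell markers was also higher in TAC, at 262 to 928 against 86.2 to 192 in MSC. Of 11 dental epithelium and ameloblast markers, 4 had every TAC sample above every MSC sample, as did Ank, Alpl and 12.3% of all genes tested. These 4 were Krt5, Krt14, Epcam and Cdh1. The keratin gene Krt14 was at 16.1 to 35.6 in TAC and 8.84 to 16.02 in MSC, and the cadherin gene Cdh1 at 6.31 to 14.3 and 0.00666 to 4.06. Others of the list, Amelx, Enam and Amtn, were lower in TAC in replicates 1 and 2, as was the sum of the list (3321 and 3388 against 3717 and 3657). In replicate 3 these genes and the sum (2620 against 336) were higher in TAC. The part of these cells in the Ank and Alpl results was not tested. The genes that make and release pyrophosphate thus had group means in opposite order.

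ALPL and PHOSPHO1 are the phosphatases of mineralization, the first on the cell and vesicle surface and the second inside matrix vesicles, the membrane sacs in which mineral can start. Alpl (chromosome 4, 137741733 to 137796384, minus strand) measured 48.98, 53.2 and 31.4 in the MSC libraries and 55.1, 60.1 and 109 in the TAC libraries. The lowest TAC sample lay just above the highest MSC sample. MSC averaged 44.5 ± 11.6 (SD, n = 3) and TAC 74.6 ± 29.6 (SD, n = 3), a log2 fold change of 0.70 with an SE of 0.37 and a limma adjusted p of 0.516. Its 95% interval, -0.16 to 1.56, included no difference. The ratio of TAC to MSC was 1.13 within replicates 1 and 2 and 3.46 within replicate 3.

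Phospho1 (chromosome 11, 95824499 to 95832140, plus strand) was close to undetected. The MSC libraries held 0.828, 0.0456 and 0.00666 and the TAC libraries 1.32, 1.73 and 0.00379. These correspond to 30.1, 0.574 and 0 estimated reads in MSC and 59.5, 71.1 and 0 in TAC. In replicate 3 a count of 0 allows up to 3 reads, counting error only, so a difference between groups was not detectable there. Phospho1 overlaps Zfp652 on the same strand, which reached 93.4, and Abi3 on the other, so its few reads can include reads of these genes.

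The ratio of the phosphatase to each pyrophosphate gene was formed within each library, after dividing by the length of annotated exons. Alpl over Enpp1 stood at 5.47, 5.35 and 1.45 in the MSC libraries and 7.51, 9.34 and 30.5 in the TAC libraries. The groups had to be separate here, since Alpl was higher and Enpp1 lower in every TAC sample, so the ratio only gives the joint size, 1.55-fold within replicates 1 and 2 and 21.1-fold within replicate 3. Alpl over Ank was 1.84, 2.38 and 1.39 in MSC and 1.09, 1.30 and 2.05 in TAC. Here the groups overlapped, and the ratio was lower in TAC in replicates 1 and 2 (0.569-fold) and higher in replicate 3 (1.48-fold). These ratios are descriptions of each library and were not tested.

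**Figure D2:**
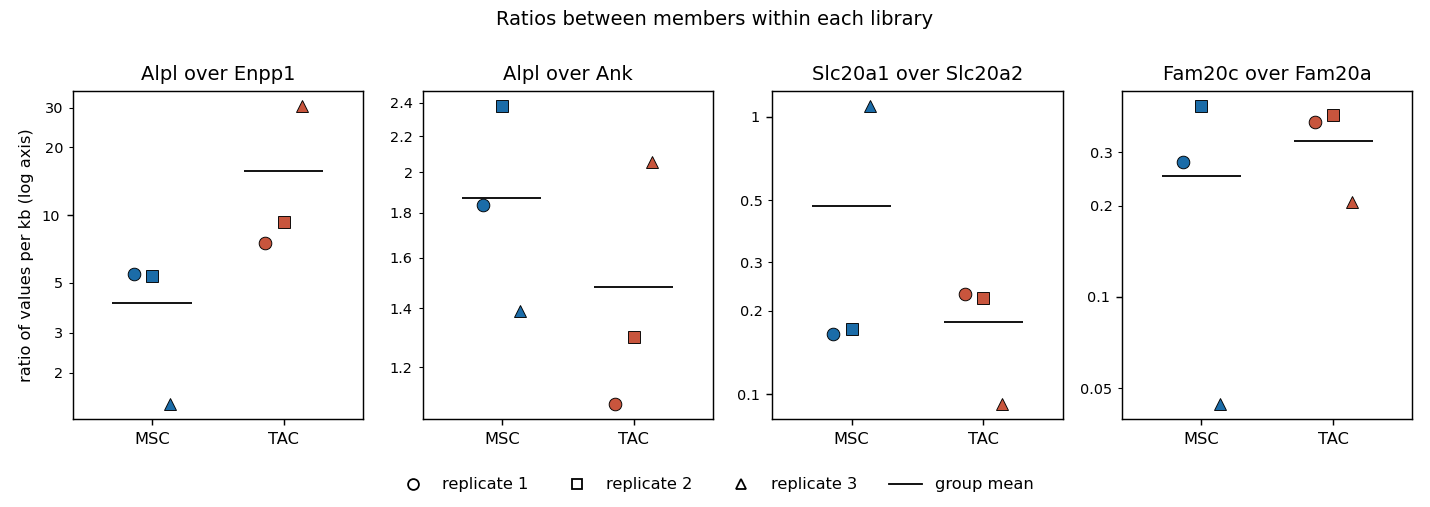
Ratio of values per kb of exon (log axis) between pairs of members within each library, with colours and symbols for group and replicate and a line at the group mean. Alpl over Enpp1, whose separation follows from that of the single genes, runs from 1.45 to 5.47 in MSC and 7.51 to 30.5 in TAC, and the other ratios overlap.

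The stretch of 250 bases before the annotated start is shown for Alpl, Enpp1 and Ank, since these members separated the groups and their RefSeq promoter (GRCm38.p6) begins at the same base as the deposited gene. Of the 10 members, 8 had an entry in the RefSeq promoter table. The windows lie at chr4:137796385-137796634 (minus strand), chr10:24712160-24712409 (minus strand) and chr15:27466427-27466676 (plus strand). Capitals mark matches, on either strand, to GGGCGG (GC box) or CTTTGA (core of a TCF/LEF site, the DNA site of canonical WNT signaling). The letters TATAAA, of a TATA box, were searched too, and so was a GLI site, spelled GACCACCCA, the DNA site of hedgehog signaling. Neither had a match in these windows.
Alpl: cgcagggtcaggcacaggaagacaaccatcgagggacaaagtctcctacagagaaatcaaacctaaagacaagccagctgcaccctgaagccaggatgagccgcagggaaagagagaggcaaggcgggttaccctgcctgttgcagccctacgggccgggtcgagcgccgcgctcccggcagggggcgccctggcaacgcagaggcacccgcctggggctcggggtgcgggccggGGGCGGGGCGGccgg
Enpp1: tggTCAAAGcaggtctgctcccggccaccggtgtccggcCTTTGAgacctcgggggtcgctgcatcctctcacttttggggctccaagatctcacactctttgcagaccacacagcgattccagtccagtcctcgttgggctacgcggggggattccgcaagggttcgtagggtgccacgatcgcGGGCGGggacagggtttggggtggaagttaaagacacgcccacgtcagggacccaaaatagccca
Ank: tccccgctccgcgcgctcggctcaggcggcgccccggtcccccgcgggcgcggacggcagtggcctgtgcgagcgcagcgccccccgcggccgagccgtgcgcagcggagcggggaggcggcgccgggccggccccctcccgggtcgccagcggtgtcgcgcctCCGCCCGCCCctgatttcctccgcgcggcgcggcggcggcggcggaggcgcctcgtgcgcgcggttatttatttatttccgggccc

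All 3 windows held a GC box, as did 32.7% of 32851 promoter windows of this length, and in Alpl and in Ank a pair of matches overlapped. The Enpp1 window held 2 TCF/LEF cores, on opposite strands, against 13.8% of windows with at least 1. The windows differed in base composition, with 81.2% G and C and 49 CpG in Ank, 68.4% and 20 in Alpl and 61.2% and 17 in Enpp1, where the median window had 52.4% and 6. A match of letters is a description of the window and not a binding site. The TATA box was found in 12.4% of windows and the GLI site in 0.225%.

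MGP, matrix Gla protein, is a small secreted protein whose carboxylated glutamates bind calcium, and it keeps arteries and cartilage free of mineral. Mgp (chromosome 6, 136872435 to 136875823, minus strand) measured 55.7, 51.3 and 277 in the MSC libraries and 2.63, 2.57 and 6.94 in the TAC libraries. The lowest MSC sample was far above the highest TAC sample, and replicate 3 was the highest sample of each group. MSC averaged 128 ± 129 (SD, n = 3) and TAC 4.04 ± 2.51 (SD, n = 3). Its log2 fold change, -4.32 with an SE of 0.70, was the largest of the 9 tested members, with a 95% interval of -5.97 to -2.68 and a limma adjusted p of 0.0709. The mean ratio, MSC over TAC, was 20.6 within replicates 1 and 2 and 39.9 within replicate 3. With the replicate block the adjusted p was 0.0327, and without MSC replicate 3 it was 0.0389 at a log2 fold change of -3.54. Among all alternatives the lowest limma adjusted p of Mgp was 2.20e-07 and the highest 0.294.

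Markers of smooth muscle and pericytes were, like Mgp, higher in MSC. All 7 genes of that list had every MSC sample above every TAC sample, and their summed level reached 738, 739 and 1511 in the MSC libraries and 87.6, 84.8 and 84.2 in the TAC libraries. The defining genes Acta2 and Myh11 were at 73.5 to 266 and 106 to 205 in MSC, and at 0.0114 to 4.53 and 0.0417 to 6.52 in TAC. In MSC replicate 3, where Mgp was highest, Rgs5 made up most of the sum, while Myh11 and Notch3 were lower than in the other MSC libraries. In TAC replicate 3, where Mgp was the highest of TAC, the sum, Acta2, Myh11, Cnn1 and Notch3 were the lowest of TAC. Tagln, Rgs5 and Mcam were the highest of TAC there. Of 6 endothelial markers, 3 were likewise higher in every MSC sample, as were 12.2% of all genes tested. Their list summed to 164 to 240 in MSC and 96.03 to 108 in TAC. Kdr was higher in TAC in replicates 1 and 2, and Tek in replicate 3. The part of these cells in the Mgp result was not tested, and in captured tissue fewer cells of a type cannot be told apart from less RNA per cell.

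**Figure D3:**
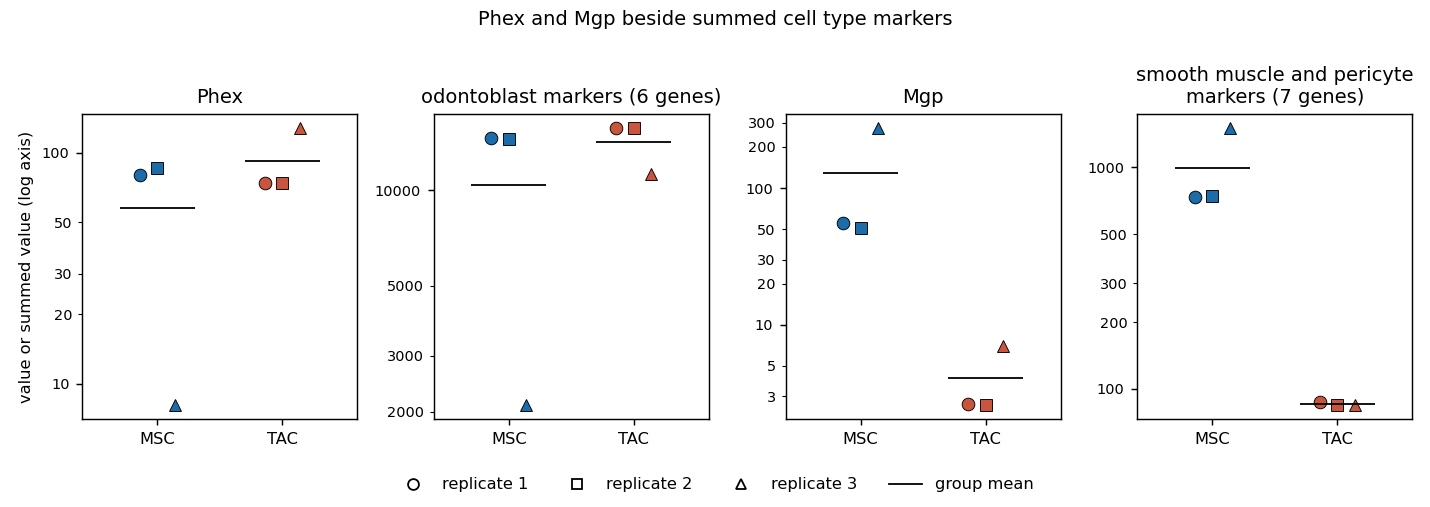
Value of Phex and Mgp and summed value of odontoblast and of smooth muscle and pericyte markers (log axis) in each sample, with colours and symbols for group and replicate and a line at the group mean. Phex and the odontoblast sum are lowest in MSC replicate 3 (8.07 and 2091), and Mgp and the smooth muscle sum are highest there (277 and 1511), the sum being mostly Rgs5. In TAC replicate 3 Phex and Mgp are the highest of TAC (128 and 6.94), and both sums are the lowest of TAC (11238 and 84.2).

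PHEX is a membrane endopeptidase of odontoblasts and osteoblasts, and its loss causes X-linked hypophosphatemia with poorly mineralized dentin. Phex (chromosome X, 157162075 to 157415312, minus strand) measured 79.7, 85.7 and 8.07 in the MSC libraries and 74.2, 74.1 and 128 in the TAC libraries. Replicates 1 and 2 of MSC lay slightly above those of TAC, whereas replicate 3 held the lowest and the highest value. MSC averaged 57.8 ± 43.2 (SD, n = 3) and TAC 92.2 ± 31.3 (SD, n = 3), and the log2 fold change of 1.17 had an SE of 0.85 and a limma adjusted p of 0.657. Replicates 1 and 2 gave -0.15 and replicate 3 gave 3.83, opposite directions.

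FAM20C is the Golgi kinase that phosphorylates most secreted phosphoproteins, including those of dentin and enamel, and FAM20A is a pseudokinase that binds FAM20C and raises its activity. Fam20c (chromosome 5, 138754514 to 138810077, plus strand) measured 17.5, 22.6 and 1.06 in the MSC libraries and 19.7, 19.3 and 21.3 in the TAC libraries. MSC replicate 3, with 158 estimated reads, was the single low sample, and the other 5 lay between 17.5 and 22.6. MSC averaged 13.7 ± 11.2 (SD, n = 3) and TAC 20.1 ± 1.07 (SD, n = 3), a log2 fold change of 1.13 with an SE of 0.89 and a limma adjusted p of 0.688. It came to -0.029 for replicates 1 and 2 and 3.44 for replicate 3, and voom gave 2.997 (adjusted p 0.154). Fam20a (chromosome 11, 109669749 to 109722279, minus strand) measured 34.6, 29.2 and 13.2 in MSC and 28.6, 26.5 and 56.9 in TAC, and its groups overlapped. MSC averaged 25.7 ± 11.1 (SD, n = 3), TAC averaged 37.3 ± 17.0 (SD, n = 3), and the log2 fold change was 0.54, with an SE of 0.47 and a limma adjusted p of 0.709. Replicate 3 gave 2.03 and the other replicates -0.20. Per kb of exon, Fam20c stood below Fam20a in every library, at 0.0441 to 0.427 of its level.

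SLC20A1 and SLC20A2 (PiT1 and PiT2) carry phosphate into cells together with sodium. Slc20a2 (chromosome 8, 22476788 to 22569612, plus strand) measured 56.3, 62.2 and 17.8 in the MSC libraries and 58.9, 63.3 and 106 in the TAC libraries. Replicates 1 and 2 of the groups were nearly equal, and replicate 3 again held both extremes. MSC averaged 45.5 ± 24.1 (SD, n = 3) and TAC 75.9 ± 25.8 (SD, n = 3), a log2 fold change of 0.86 with an SE of 0.51 and a limma adjusted p of 0.574. For replicates 1 and 2 it was 0.043, and for replicate 3 it was 2.51. Slc20a2 overlaps Gm17491 on the same strand, which reached 43.3, so its value can include reads of that gene.

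Slc20a1 (chromosome 2, 129198764 to 129211616, plus strand) had its MSC high and TAC low value in replicate 3, at 8.34, 9.65 and 17.5 in MSC and 12.2, 12.6 and 8.73 in TAC. The groups overlapped, and MSC averaged 11.8 ± 4.93 (SD, n = 3) while TAC averaged 11.2 ± 2.14 (SD, n = 3). The fitted -0.024, with an SE of 0.42 and a limma adjusted p of 0.992, had a 95% interval of -1.01 to 0.96. Replicates 1 and 2 gave 0.43 and replicate 3 gave -0.93, again opposite directions. Slc20a1 stood below Slc20a2 per kb of exon in 5 libraries, at 0.0920 to 0.231 of its level, and near it in MSC replicate 3, at 1.09. On the opposite strand Slc20a1 overlaps Gm4430, which reached 6.14, and 9830144P21Rik, which reached 2.24. Whether reads were assigned by strand is not given, so its value can include reads of these genes.

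**Figure D4:**
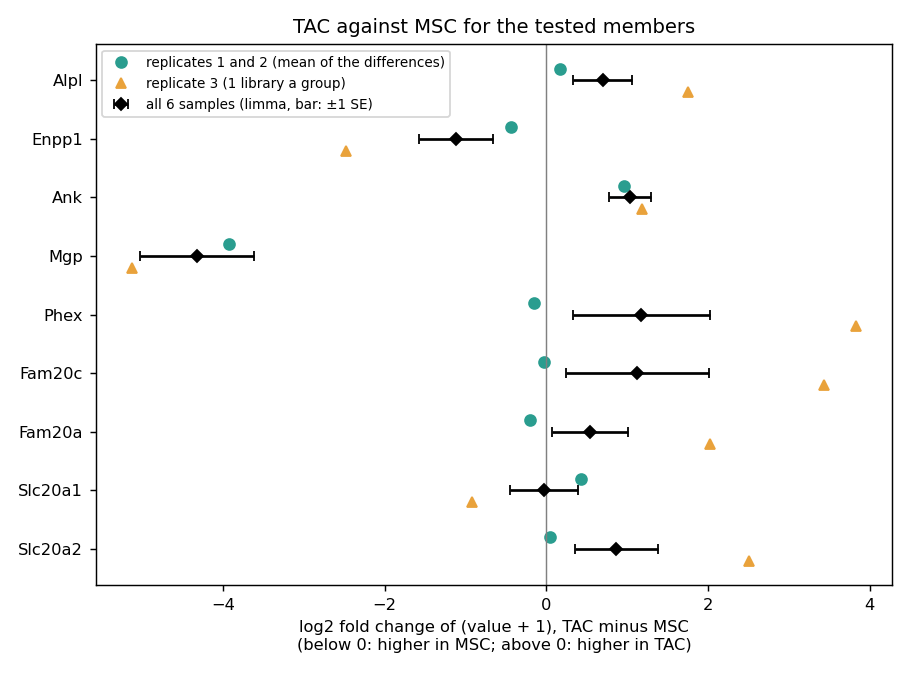
Log2 fold change of each tested member on the log2(value + 1) scale, TAC minus MSC, for all 6 samples with a bar of 1 SE (black diamonds), for replicates 1 and 2 (green circles) and for replicate 3 (orange triangles). Ank is of similar size in both sets of libraries, Mgp has the same direction in both (-3.92 and -5.13), and Phex, Fam20c, Fam20a and Slc20a2 are near 0 in replicates 1 and 2 and at 2.03 to 3.83 in replicate 3.

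The low values of Phex, Fam20c, Fam20a and Slc20a2 in MSC replicate 3 went with low values of odontoblast genes there, all 6 markers being lower than in MSC replicates 1 and 2. The summed level of 6 odontoblast markers, mostly Col1a1 and Dspp, reached 14647, 14543 and 2091 in the MSC libraries and 15762, 15679 and 11238 in the TAC libraries. That of 11 dental epithelium and ameloblast markers was 3717, 3657 and 336 in MSC and 3321, 3388 and 2620 in TAC, carried mainly by Amelx and Ambn, and 4 of its genes (Amtn, Odam, Krt5 and Krt14) were higher in MSC replicate 3 than in the other MSC libraries. Of the odontoblast markers, Dmp1 and Sema3e had no read in MSC replicate 3, where 43.1% of all genes had none. Without that library the log2 fold changes of Phex, Fam20c, Fam20a and Slc20a2 were 0.11, 0.012, 0.14 and 0.30. In TAC replicate 3 the odontoblast sum was the lowest of TAC, though Sema3e and Wisp1 were the highest of TAC there. Phex, Fam20a and Slc20a2 had their highest values of all samples in TAC replicate 3, at 128, 56.9 and 106, and Fam20c did not. The part of odontoblasts and dental epithelium in the results for the 4 members was not tested. Replicate 3 differs from replicates 1 and 2 in depth and in share of mitochondrial ribosomal RNA. Over the 6 libraries, the log2 values of Phex had a Pearson r of 0.98 with Fam20c, 0.98 with Slc20a2 and 0.91 with Fam20a. Those of Alpl had an r of -0.97 with Enpp1.

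Divided by exon length, the members could be ordered within a library. In the 3 MSC libraries Mgp was first, at 43.2 to 233 per kb, followed in replicates 1 and 2 by Phex (12.7 and 13.6) and Alpl (12.1 and 13.2), which differed by little. In MSC replicate 3 the order after Mgp was Alpl (7.79), Ank (5.61) and Enpp1 (5.39), and Phex was eighth of the 10. In the 3 TAC libraries Alpl was first, at 13.7, 14.9 and 26.9 per kb. Ank and Phex came next in TAC replicates 1 and 2, at 12.5 and 11.5 for Ank and 11.8 in both for Phex, and Phex came next in replicate 3 at 20.4. Mgp was between sixth and eighth in TAC, at 2.16 to 5.85 per kb, and Phospho1 was last in all 6 libraries. Enpp1 was ninth in each TAC library, at 0.884 to 1.82 per kb.

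Other genes that handle phosphate and pyrophosphate were taken from a list of 36, of which 33 were listed and 23 tested. With limma, 0 had an adjusted p under 0.05 (0.422% of all genes) and 6 an unadjusted p under 0.05 (11.9%), and voom gave 0 (0.149%) and 8 (23.2%). The median log2 fold change was 0.14 over these 23 genes, 0.70 over the 9 members and 0.026 over all genes tested. In replicates 1 and 2 the medians were -0.051, -0.029 and -0.046. Groups did not overlap for 5 of the 23 with higher values in MSC and 2 with higher values in TAC, beside 12.2% and 12.3% of all genes. With the replicate block 2 of the 23 passed the adjusted threshold, Smpd3 and Pkdcc, both higher in TAC, beside 1.49% of all genes.

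Smpd3 encodes neutral sphingomyelinase 2, a membrane lipid enzyme whose loss leaves bone and dentin undermineralized. Smpd3 (chromosome 8, 106252548 to 106337988) measured 55.2, 63.9 and 35.5 in the MSC libraries and 383, 385 and 169 in the TAC libraries, and every TAC sample was well above every MSC sample. A log2 fold change of 2.52 (SE 0.42) was fitted, with a limma adjusted p of 0.0764 that was 0.0295 with the replicate block. It was of similar size in replicates 1 and 2 (2.67) and in replicate 3 (2.23). Pkdcc encodes a secreted tyrosine kinase needed for skeletal growth. Pkdcc (chromosome 17, 83215292 to 83225070) was 43.3, 53.5 and 48.4 in MSC and 106, 112 and 119 in TAC, and its fitted 1.20 (SE 0.24) had a limma adjusted p of 0.114 that was 0.0459 with the block.

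Of the 6 genes with an unadjusted p under 0.05, 4 had higher values in MSC. Entpd1, an ectoenzyme that removes extracellular ATP, the substrate of ENPP1, was 21.6, 23.2 and 13.3 in MSC and 5.10, 5.68 and 5.91 in TAC (log2 fold change -1.60, limma adjusted p 0.170). Gas6, like Mgp a vitamin K-dependent protein, was 35.3, 31.7 and 28.8 in MSC and 12.5, 12.9 and 16.8 in TAC (-1.13, limma adjusted p 0.187). Xpr1, the phosphate exporter, was 42.2, 41.1 and 38.6 in MSC and 25.03, 24.1 and 14.7 in TAC (-0.94, limma adjusted p 0.288). Anxa6, a calcium-binding annexin found in matrix vesicles, was 67.1, 65.9 and 101 in MSC and 48.6, 46.8 and 35.4 in TAC (-0.81, limma adjusted p 0.341). In each of the 4 the groups were separate and both sets of libraries had the same direction. With the library set term the limma adjusted p was 0.0200 for Entpd1, 0.0214 for Gas6 and 0.0281 for Xpr1, past the threshold that 11.8% of all genes passed in that fit. Ggcx, the carboxylase that activates MGP, also had separate groups, at 22.4 to 40.6 in MSC and 15.2 to 18.8 in TAC (-0.68, limma adjusted p 0.501). Beside these genes and Enpp1, markers of several cell types had all MSC samples above all TAC samples, as did 12.2% of all genes tested. These were smooth muscle and pericytes (7 of 7), endothelium (3 of 6), Schwann cells (2 of 5) and macrophages and osteoclasts (2 of 6). Beside Smpd3 and Pkdcc, markers of dividing cells (4 of 5) and dental epithelium (4 of 11) had the reverse, as did 12.3% of all genes tested. The part of these cells in the results was not tested.

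**Figure D5:**
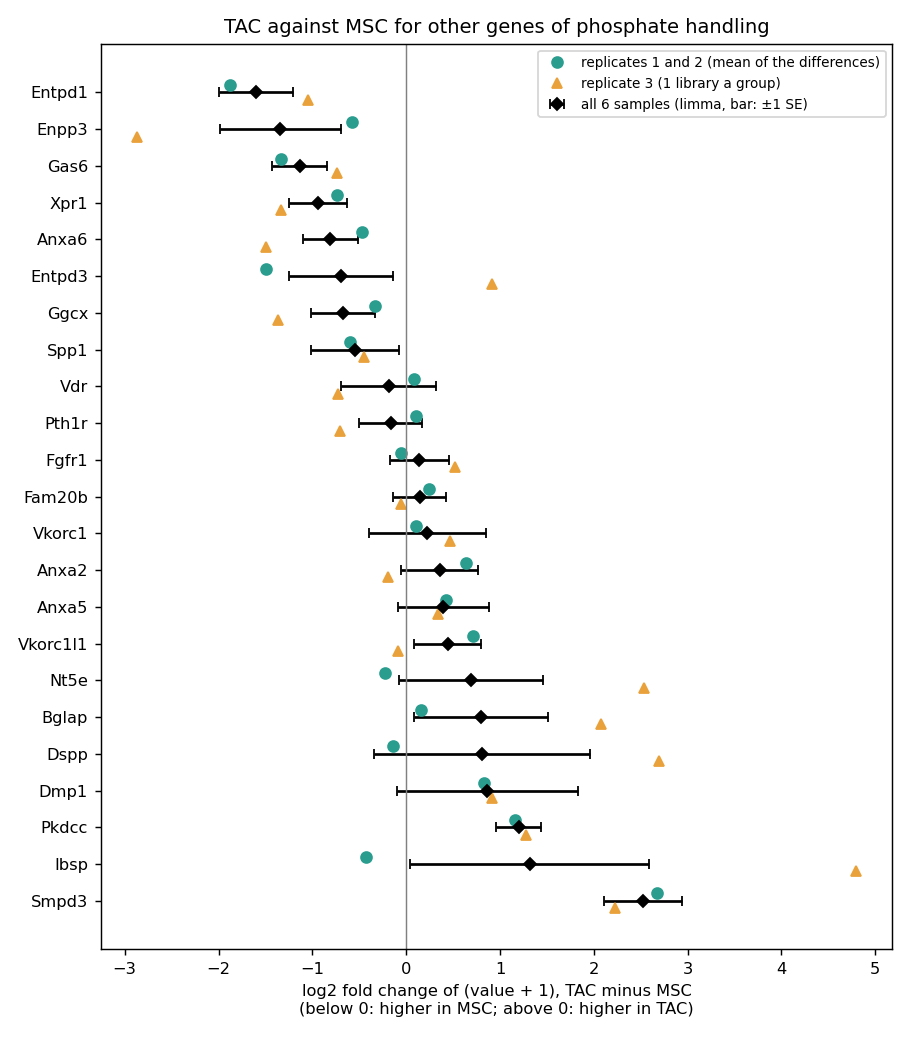
Log2 fold change on the log2(value + 1) scale, TAC minus MSC, of the 23 tested genes of the wider list, for all 6 samples with a bar of 1 SE (black diamonds), for replicates 1 and 2 (green circles) and for replicate 3 (orange triangles). Smpd3 and Pkdcc lie to the right and Entpd1, Gas6 and Xpr1 to the left in both sets of libraries, while Dspp and Ibsp change side between them.

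Of the matrix phosphoproteins that FAM20C phosphorylates, Dspp and Ibsp were, like Fam20c, far lower in MSC replicate 3 than elsewhere. Dspp, the main dentin phosphoprotein, was 4909, 4763 and 476 in MSC and 4410, 4370 and 3095 in TAC, and its fold change on the log2 scale turned from -0.14 in replicates 1 and 2 to 2.70 in replicate 3. Ibsp, bone sialoprotein, was 30.7, 32.9 and 0.00666 in MSC and 24.2, 22.6 and 27.03 in TAC, and MSC replicate 3 had no read. Dmp1 was 3.20, 5.94 and 0.00666 in MSC and 8.43, 8.82 and 0.902 in TAC, so it was higher in TAC in each numbered pair. Spp1, osteopontin, an inhibitor of crystal growth, was 12.8, 15.01 and 6.99 in MSC and 8.80, 8.85 and 4.85 in TAC, lower in TAC in each numbered pair (-0.55). Mepe had at most 60 estimated reads and was not tested. Limma adjusted p-values of the 4 tested substrates ran from 0.706 to 0.856.

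For each member the genes with the most similar profile over the 6 samples were found among 7843 genes with a mean of at least 10. Mgp was most like St6galnac2 (Pearson r 0.998), at 60.9 to 131 in MSC and 16.7 to 22.2 in TAC, and Glul (0.998). Ank was most like Cnot9 (0.996) and Thoc3 (0.996), whose groups were also separate. Enpp1 was most like Abcg2 (0.999), at 16.3, 18.2 and 47.7 in MSC and 12.06, 9.85 and 4.46 in TAC, and Mrps35 (0.996). Alpl was most like Dpp9 (0.995) and Bckdk (0.995), Phex like Terf2ip and Med20 (both 0.999), and Fam20c like U2surp and Krit1 (both 0.999). Slc20a2 was most like Parp11 (0.998) and Ncln (0.998), Fam20a like Ppcdc (0.994) and Zfp580 (0.993), Slc20a1 like Gmcl1 (0.995) and Mtmr12 (0.995), and Phospho1 like Ptpn9 (0.975) and Bcl2l13 (0.972). With replicate 3 apart from the other libraries in depth and in share of mitochondrial ribosomal RNA, these 6 points are few, and the values say nothing of function.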

How the data were processed

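LCM samples were sequenced as single-end reads. By their methods and notes the authors trimmed reads, aligned them to mm10 with TopHat2 2.0.8 and normalized by RPKM, with CASAVA 1.8.2 and Partek also named. How reads were assigned to genes, and whether by strand, is not given in the sources used here. The deposited values behave as a signal and not as RPKM: the lowest value of a library is shared by genes of any length, and 76.2% to 94.9% of values below 30 reads were whole multiples of it within 0.01 read. Estimated reads were the value over that lowest value, minus 1. The planned test on the log scale was kept, and voom on estimated reads was an alternative.

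Limma 3.58.1 in R 4.3.3, with a variance trend, was fitted to log2(value + 1) of 15391 genes with a mean of at least 1, two-sided, with Benjamini-Hochberg adjustment at 0.05. A pseudocount of 1 understates changes of low genes. The fit was tested on simulated data in which replicate 3 differed only in depth, unlike here. Alternatives changed the pseudocount, filter, scaling, variance model, block, library set and samples. The members and lists were chosen with earlier results of these data known. The text names all members, list genes with an unadjusted p under 0.05, 5 FAM20C substrates and the 2 most similar genes per member; Ggcx and the endocrine genes were named after their values were seen. Exon lengths came from GENCODE M21, which matched all 10 members once the deposited end was lowered by 1.

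Replicates 1 and 2 differed by more than sampling noise (chi-square per gene 10.3 in MSC and 8.32 in TAC) and were kept as separate samples. The methods speak of pairs of samples. Deviations from the group means correlated at 0.477, 0.466 and 0.517 between samples of the same number. The replicate number served as a block in an alternative fit, and the main fit used no pairing. Replicates 1 and 2 crossed between the groups gave 0.462 and 0.480, so within that set the numbers do not stand out.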

Additional observations from a re-analysis of the deposited data

How the results depend on the processing

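The count of genes past the adjusted threshold was 65. It was 43 with a pseudocount of 0.5, 29 without the variance trend, 23 with voom on estimated reads, 229 with the replicate block, 1814 with a library set term (replicate 3 against 1 and 2) and 6796 in replicates 1 and 2 only. Leaving out 1 sample gave 0 to 292, with 0 without MSC replicate 1 or 2 or TAC replicate 1 or 2, 36 without TAC replicate 3 and 292 without MSC replicate 3. Members past it numbered 0 as reported, 1 with the replicate block, 2 with the library set term (Mgp and Ank), 3 in replicates 1 and 2 only, and 0 to 1 with a sample left out, the 1 being Mgp, without MSC replicate 3. Other pathway genes past it numbered 0, then 1 with quantile normalization, 2 with the replicate block, 5 with the library set term, 15 in replicates 1 and 2 only and 0 to 1 with a sample left out. Of the 153 alternative values of the 9 members, 139 kept direction and side of the threshold, 7 passed it and 7 changed sign. In replicates 1 and 2 only, the log2 fold change was -0.15 for Phex, -0.20 for Fam20a, -0.029 for Fam20c and 0.43 for Slc20a1. Slc20a1 was 0.021 with quantile normalization and between -0.22 and 0.27 with a sample left out, the positive values being those without MSC replicate 3 (0.27) and without TAC replicate 3 (0.13). For these the cause was not tested. The replicate block changed no call of a member other than Mgp, and of the other pathway genes those of Smpd3 and Pkdcc. The median log2 fold change of all genes was 0.026, and 0.047 and 0.052 with median-ratio scaling and quantile normalization. Phospho1 and Mepe had 0 reads in the deeper replicate 3 libraries and up to 71.1 and 60 in the others, and the cause was not tested.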

Other observations

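Genes of endocrine phosphate control were mostly at the edge of detection. Fgfr1, a receptor through which the hormone FGF23 acts, was at 235 to 333 in MSC and 320 to 339 in TAC, a fitted difference of 0.14 on the log2 scale, with an SE of 0.32 and a limma adjusted p of 0.918. The parathyroid hormone receptor gene Pth1r was at 15.3 to 29.04 in MSC and 17.4 to 18.9 in TAC, and the vitamin D receptor gene Vdr at 3.39 to 8.83 and 3.98 to 4.95. Fgf23 had at most 16 estimated reads in a library, its coreceptor gene Kl at most 28, Galnt3 at most 36, Cyp27b1 at most 31 and Cyp24a1 at most 13. All 5 had 0 reads in both replicate 3 libraries, where up to 3 reads are allowed by a count of 0.

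The remaining marker lists summed to less than the odontoblast list in every library. The odontoblast sum was mostly Col1a1 (9568 of 14647 in MSC replicate 1) and Dspp. Sums over different genes do not compare numbers of cells. Schwann cell markers summed to 20.2 to 43.2 in MSC and 6.09 to 19.2 in TAC, and macrophage and osteoclast markers to 61.07 to 122 and 36.6 to 56.5. Osteoblast markers summed to 441 to 459 in MSC and 350 to 1377 in TAC, and the highest sum, in TAC replicate 3, was mostly Bglap (1180), while Runx2, Ifitm5 and Col13a1 were lower there than in MSC replicates 1 and 2. The 3 chondrocyte markers listed summed to 9.56 to 39.9 and 5.22 to 21.05, and erythroid markers to 37.2 to 72.3 and 56.3 to 68.2.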
